A study of Rattus norvegicus with 22 samples.

Results

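Pdgfra, Cspg4, Sox10, Olig1, Olig2, Gpr17 and Nkx2-2 mark oligodendrocyte precursor cells and the cells they give rise to, and their transcripts were followed in the rat hippocampus after a lateral fluid percussion traumatic brain injury (TBI). The genes were chosen by name as established markers of the lineage, by a rule that uses no measured value but was set with earlier results of these data known, and they are 7 of the 17172 genes in the count table. All 7 passed the filter on low counts, as did 12875 genes in total.

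Messenger RNA from the hippocampus ipsilateral to the injury was sequenced for 14 adult male Sprague-Dawley rats, each giving 1 library. TBI rats received a fluid pressure pulse through a craniectomy over the right hemisphere, and sham rats underwent surgery and anesthesia of the same kind without the pulse. Tissue was taken at day 1 from 2 sham and 4 TBI rats, and at day 14 from 4 sham and 4 TBI rats. The comparisons ask how the tissue changed soon after injury and whether the changes lasted.

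Oligodendrocyte precursor cells are dividing glia that persist in the adult brain and mature into the oligodendrocytes that wrap axons in myelin. Pdgfra is the receptor through which platelet-derived growth factor A (PDGF-A) drives their division and survival, and Cspg4 is the NG2 proteoglycan on their surface, which pericytes of small vessels also carry. Olig1, Olig2, Sox10 and Nkx2-2 are transcription factors: Olig2 and Sox10 specify the lineage and stay on in mature cells, Olig1 and Nkx2-2 act as cells begin to differentiate. Gpr17 is a G protein-coupled receptor present for a short time in precursors that have committed to differentiate, and it is switched off before they make myelin.

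The deposited counts were checked for depth and tissue before the lineage genes were compared. Total counts ranged from 15065540 to 23743703 per library. Replicate libraries of each group differed by far more than counting noise, with a chi-squared per degree of freedom of 13.3 to 171 over pairs, and no pair was close enough to be 1 library under separate names. Neuron markers such as Snap25 and Slc17a7 and myelin genes such as Mbp were present in every library of this hippocampal tissue. In 3 libraries the summed level of the choroid plexus markers stood far above the others, at 8693 CPM (counts scaled to the library total) in sham day 1 replicate 1, 1546 in TBI day 14 replicate 2 and 7640 in TBI day 14 replicate 3, against 8.252 to 25.73 in the other 11. Levels are given below as CPM scaled by edgeR's TMM factors, and each comparison is a log2 fold change with its standard error (SE) from 1 edgeR quasi-likelihood model over all 14 libraries, called where the adjusted p was under 0.05.

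Promoter sequences are shown for Gpr17, Olig2 and Nkx2-2, the genes with an entry that were called in a comparison of TBI with sham rats below, so that the start of each can be read beside its values. RefSeq promoter entries of build GRCr8 were found for 5 of the 7 genes (not Sox10 or Olig1), each running from 250 bases before the start of the gene to 50 bases after it. The Gpr17 sequence is chr18:23857332-23857631 on the minus strand, the Olig2 sequence chr11:43961335-43961634 on the plus strand and the Nkx2-2 sequence chr3:155075573-155075872 on the minus strand, all written 5′ to 3′ along the gene. Capitals mark matches to CCAAT, the letters of the CCAAT box, on either strand.
Gpr17: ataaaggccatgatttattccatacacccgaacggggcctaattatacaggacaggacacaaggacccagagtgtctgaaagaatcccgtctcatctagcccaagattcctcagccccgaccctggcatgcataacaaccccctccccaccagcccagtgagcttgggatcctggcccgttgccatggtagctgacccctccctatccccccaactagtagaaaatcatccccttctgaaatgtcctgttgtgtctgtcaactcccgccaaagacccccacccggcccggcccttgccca
Olig2: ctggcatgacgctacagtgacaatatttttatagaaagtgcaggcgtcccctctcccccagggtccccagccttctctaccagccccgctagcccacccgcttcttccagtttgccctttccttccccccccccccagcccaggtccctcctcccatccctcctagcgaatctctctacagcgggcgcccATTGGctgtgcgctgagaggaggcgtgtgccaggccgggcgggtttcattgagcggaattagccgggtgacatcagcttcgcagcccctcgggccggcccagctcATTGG
Nkx2-2: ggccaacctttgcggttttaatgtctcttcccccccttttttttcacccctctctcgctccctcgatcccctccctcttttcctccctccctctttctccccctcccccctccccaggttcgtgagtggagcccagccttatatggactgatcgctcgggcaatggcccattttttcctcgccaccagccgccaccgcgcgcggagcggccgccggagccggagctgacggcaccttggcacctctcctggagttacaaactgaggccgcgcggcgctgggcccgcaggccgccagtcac
The Olig2 window held 2 CCAAT matches, both written as ATTGG because they lie on the other strand, and the windows of Gpr17 and Nkx2-2 held 0. CCAAT was present in 37.5% of the 33469 promoters of this length in the table. CANNTG, the E-box letters that basic helix-loop-helix factors such as the Olig proteins bind, was present in 72.1% of all promoters but in 1 of the 5 lineage promoters, that of Pdgfra. GC content was 56.0% for Gpr17, 63.3% for Olig2 and 64.7% for Nkx2-2, against a median of 51.7% over all promoters. These matches describe letters in a window of another build than the one the reads were aligned to, and binding was not measured.

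At day 1, Gpr17 was the 1 lineage gene that differed between TBI and sham rats, and it was lower after injury. The 2 sham rats had 31.36 and 24.34 CPM, and the 4 TBI rats had 15.04, 11.2, 11.78 and 11.64 CPM. Both sham rats lay above all 4 TBI rats. With 2 against 4 rats there are only 15 arrangements, so a lack of overlap carries little weight by itself. The share of all tested genes without overlap was not counted, here or for the genes below. The group means were 27.8 ± 4.96 CPM (SD, n = 2) and 12.4 ± 1.77 CPM (SD, n = 4). The log2 fold change of Gpr17 was -1.17 (SE 0.33, edgeR adjusted p = 0.0235), so that the level after injury was 0.446 times that of sham. In bulk tissue, fewer cells of a type and less RNA per cell cannot be told apart. Of the 7 genes, 0 were called higher, where 11.2% of all tested genes were, and 1 was called lower, where 7.93% of all tested genes were. The count of 0 higher was the same at an unadjusted p under 0.05 and with DESeq2 and limma-voom, and both of those tools also called Gpr17 lower.

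The Gpr17 call rested on few rats. It was lost without either sham day 1 rat (log2 fold change -0.97, adjusted p = 0.105 in edgeR without replicate 1, and -1.34, adjusted p = 0.0661 without replicate 2) and without TBI day 1 replicate 2 (-1.12, edgeR adjusted p = 0.0512). It was also lost when all 6 sham rats formed the baseline (-0.67, edgeR adjusted p = 0.10) and without the 3 libraries with choroid plexus transcripts (-0.98, edgeR adjusted p = 0.0963). In each of these settings the direction was downward, and the call held in 19 of 24 alternatives. In GRCr8 the Gpr17 gene overlaps Lims2, a coding gene for an adhesion protein. The libraries were stranded, but the strand setting of the counting is not given in the sources used here, so reads in the overlap may have been assigned without regard to strand. Lims2 itself changed by 0.03 on the log2 scale (SE 0.30, edgeR adjusted p = 0.962).

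**Figure D1:**
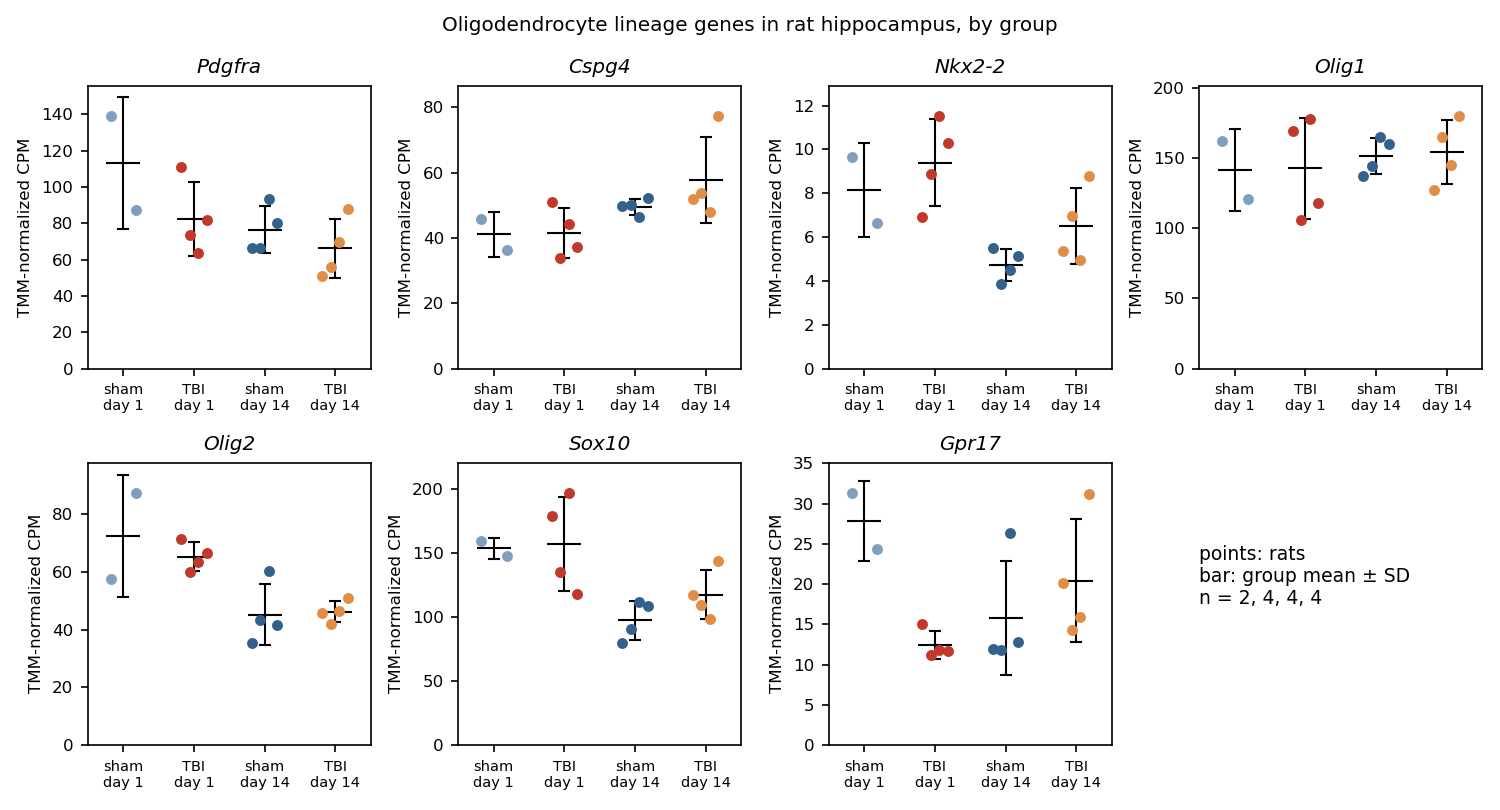
Level of each lineage gene (TMM-normalized CPM, vertical axis) in the 4 groups (horizontal axis), with 1 point per rat and bars for the group mean ± SD. The 4 TBI day 1 rats sat between 11.2 and 15.04 CPM for Gpr17, below both sham day 1 rats, while the groups overlapped at day 14 for every gene.

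The other 6 genes did not pass the test at day 1, and the TBI and sham rats overlapped for each of them. For Pdgfra the sham rats had 139.0 and 87.37 CPM and the TBI rats 111.0, 73.47, 63.54 and 81.83 CPM. Sham day 1 replicate 1, 1 of the 3 libraries with choroid plexus transcripts, was the highest of all 14 libraries for Pdgfra, and only TBI day 1 replicate 1 lay above the other sham rat. The log2 fold change was -0.46 (95% interval -1.0 to 0.09, edgeR adjusted p = 0.219), and it was -0.09 without the 3 libraries with choroid plexus transcripts. The part of those libraries in the Pdgfra value was not tested further.

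Cspg4, Sox10 and Olig1 had fitted day 1 changes near 0. For Cspg4 the sham rats had 45.85 and 36.24 CPM and the TBI rats 50.94, 33.73, 44.19 and 37.29 CPM, with a log2 fold change of 0.02 (95% interval -0.41 to 0.44). For Sox10 the sham rats had 159.7 and 147.9 CPM and the TBI rats 179.0, 135.0, 197.2 and 118.2 CPM, with a log2 fold change of 0.03 (95% interval -0.41 to 0.48). For Olig1 the sham rats had 162.2 and 121.0 CPM and the TBI rats 169.0, 105.7, 177.4 and 117.9 CPM, with a log2 fold change of 0.01 (95% interval -0.44 to 0.46). In all 3 genes TBI replicates 1 and 3 were the higher pair and replicates 2 and 4 the lower pair, so the injured rats spread to both sides of the sham rats. The edgeR adjusted p was 0.962 for Cspg4, 0.930 for Sox10 and 0.981 for Olig1, and the sign of these small values turned with the setting. The intervals still allow changes of up to 0.48 on the log2 scale, so a change within them may have been missed with these rats. In GRCr8 the Cspg4 gene overlaps Cimap1c, which is not analysed here.

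Olig2 and Nkx2-2 were likewise not called at day 1. For Olig2 the sham rats stood apart from each other, at 57.49 and 87.42 CPM, and the TBI rats fell between them at 71.54, 59.91, 63.4 and 66.39 CPM (log2 fold change -0.15, SE 0.20, edgeR adjusted p = 0.624). For Nkx2-2 the sham rats had 9.645 and 6.639 CPM and the TBI rats 6.899, 8.889, 11.51 and 10.3 CPM, of which 2 lay above both sham rats (log2 fold change 0.21, SE 0.27, edgeR adjusted p = 0.624). With all 6 sham rats as the baseline Nkx2-2 passed the test (0.68, edgeR adjusted p = 0.0449).

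At day 14 after injury, 0 of the 7 genes were called higher and 0 lower, where 4.07% of all tested genes were called higher and 0.365% lower. The count was also 0 at an unadjusted p under 0.05 and with DESeq2 and limma-voom, and TBI and sham rats overlapped for every gene. The smallest p belonged to Nkx2-2, at 5.506, 3.845, 4.489 and 5.117 CPM in the sham rats and 5.373, 6.972, 4.969 and 8.764 CPM in the TBI rats. TBI replicates 2 and 4 lay above every sham rat and replicates 1 and 3 within their range. The log2 fold change of Nkx2-2 was 0.46 (SE 0.23, edgeR unadjusted p = 0.0618, adjusted p = 0.419).

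For Gpr17 at day 14, the sham rats had 11.99, 11.84, 26.4 and 12.79 CPM and the TBI rats 20.17, 14.29, 15.9 and 31.25 CPM. All 4 TBI rats lay above 3 of the sham rats, but sham replicate 3 lay above 3 of the TBI rats. The log2 fold change was 0.37 (SE 0.28, edgeR adjusted p = 0.705), and it was 0.74 without sham replicate 3, still short of the threshold. Cspg4, at 49.62, 50.11, 46.35 and 52.25 CPM in sham rats and 51.87, 53.61, 48.0 and 77.24 CPM in TBI rats, had its highest value of the series in TBI replicate 4. Its log2 fold change was 0.22 (SE 0.16, edgeR adjusted p = 0.697).

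The remaining day 14 differences were small. Sox10 had 79.57 to 111.5 CPM in sham and 98.87 to 143.8 CPM in TBI rats (log2 fold change 0.27, 95% interval -0.10 to 0.63), and Pdgfra 66.2 to 93.25 CPM in sham and 50.95 to 87.74 CPM in TBI rats (-0.21, 95% interval -0.66 to 0.24). Olig1 had 137.2 to 164.9 CPM in sham and 127.4 to 179.7 CPM in TBI rats (0.03, 95% interval -0.34 to 0.39), and Olig2 35.33 to 60.15 CPM in sham and 41.95 to 50.79 CPM in TBI rats (0.04, 95% interval -0.31 to 0.38). The edgeR adjusted p of these 4 genes lay between 0.613 and 0.983. The median log2 fold change over the 7 genes was 0.22 at day 14 and 0.01 at day 1, beside -0.03 and -0.02 over all tested genes.

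The injury effects at the 2 days were set against each other in the same model. Gpr17 had the widest difference, -1.54 on the log2 scale (SE 0.43, edgeR unadjusted p = 0.00303, adjusted p = 0.0645), with the effect at day 1 being the lower. It did not pass the threshold in edgeR. It passed it in DESeq2 (adjusted p = 0.0170) and, in edgeR, without sham day 14 replicate 3 (-1.91, adjusted p = 0.0117). Of the 7 genes 0 were called in either direction, where 2.24% of all tested genes were called with a higher effect at day 1 and 1.44% with a lower one. At an unadjusted p under 0.05 the count was 0 higher and 1 lower in edgeR, with DESeq2 it was 0 and 1, and with limma-voom 0 and 0.

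**Figure D2:**
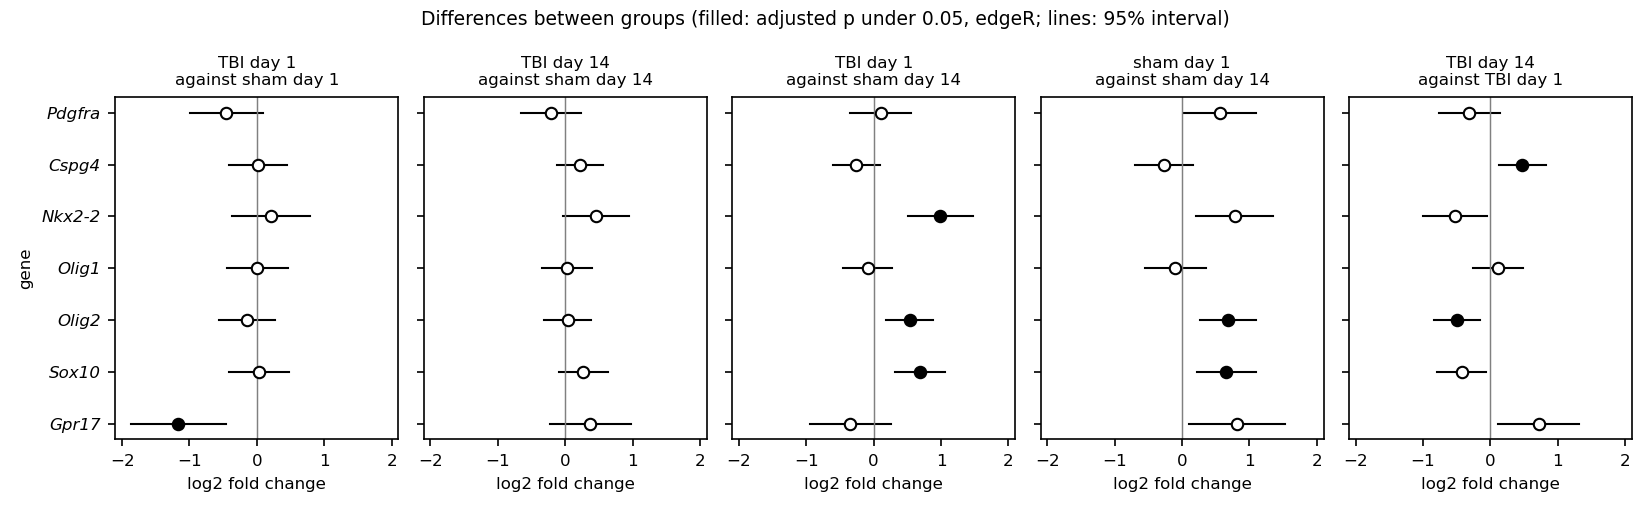
Log2 fold change (horizontal axis) of each lineage gene (vertical axis) in 5 comparisons of the 4 groups, with lines for the 95% interval and filled points where the edgeR adjusted p was under 0.05. Gpr17 is the 1 filled point for TBI against sham at day 1 and there is none at day 14, whereas Sox10 and Olig2 are filled for both day 1 groups against sham day 14.

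The study took sham day 14 as the baseline of its time courses, so TBI day 1 was also set against it. There Sox10, Olig2 and Nkx2-2 were called higher, 3 of 7 genes where 25.0% of all tested genes were called higher, and 0 were called lower where 21.0% of all tested genes were. The count of 0 lower was the same at an unadjusted p under 0.05, with DESeq2 and with limma-voom. Nkx2-2 was 9.40 ± 1.98 CPM (SD, n = 4) in TBI day 1 and 4.74 ± 0.728 CPM (SD, n = 4) in sham day 14, with every TBI rat above every sham rat (log2 fold change 0.99, SE 0.23, edgeR adjusted p = 0.00261). Sox10 was 157.3 ± 36.9 CPM (SD, n = 4) against 97.5 ± 15.2 CPM (SD, n = 4), again without overlap (0.69, SE 0.17, edgeR adjusted p = 0.00453). Olig2 was 65.3 ± 4.92 CPM (SD, n = 4) against 45.1 ± 10.6 CPM (SD, n = 4), and sham day 14 replicate 3 at 60.15 CPM lay just above the lowest TBI rat at 59.91 CPM (0.53, SE 0.16, edgeR adjusted p = 0.0146). The Olig2 call was lost without sham day 14 replicate 1 (0.43, edgeR adjusted p = 0.0514), and the Sox10 and Nkx2-2 calls held in all 23 alternatives.

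Gpr17, which was lower in TBI than in sham rats of day 1, was not called lower against sham day 14. The TBI day 1 rats spanned 11.2 to 15.04 CPM and 3 of the 4 sham day 14 rats spanned 11.84 to 12.79 CPM, with replicate 3 at 26.4 CPM. The log2 fold change was -0.35 (SE 0.28, edgeR adjusted p = 0.334) and turned to 0.02 without sham day 14 replicate 3.

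Sham rats themselves differed between the days, although n = 2 at day 1. Sox10 and Olig2 were called higher in the earlier sham rats, 2 of 7 genes where 11.3% of all tested genes were called higher, and 0 were called lower where 7.88% of all tested genes were. At an unadjusted p under 0.05 the edgeR count was 5 higher and 0 lower. DESeq2 called 3 higher and 0 lower, and limma-voom called 2 and 0. Sox10 was 0.66 higher on the log2 scale (SE 0.20, edgeR adjusted p = 0.0380) with the sham groups apart, and Olig2 was 0.68 higher (SE 0.19, edgeR adjusted p = 0.0256) with the groups overlapping. Nkx2-2 had 9.645 and 6.639 CPM at day 1 against at most 5.506 CPM at day 14 (log2 fold change 0.78, SE 0.27, edgeR adjusted p = 0.0557). Pdgfra (0.56, SE 0.25, edgeR adjusted p = 0.129) and Gpr17 (0.82, SE 0.33, edgeR adjusted p = 0.0951) were not called.

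These sham calls depended on the rats and the fit. With only the 2 sham groups in the model, the Olig2 call was lost (0.69, edgeR adjusted p = 0.0724). That of Olig2 was also lost without sham day 1 replicate 2 (0.35, edgeR adjusted p = 0.357) and without sham day 14 replicate 1, 2 or 4 (adjusted p of 0.0674, 0.0608 and 0.0664 in edgeR). The Sox10 call was lost without either sham day 1 rat (edgeR adjusted p of 0.126 and 0.114), without sham day 14 replicate 1, 2 or 4 (0.0957, 0.0871 and 0.0564) and without TBI day 14 replicate 1 (0.0516). Without the 3 libraries with choroid plexus transcripts, which include sham day 1 replicate 1, Sox10 was 0.61 higher (edgeR adjusted p = 0.154) and Olig2 0.96 higher (edgeR adjusted p = 0.0257). The log2 fold change of Gpr17 rose to 1.19 (edgeR adjusted p = 0.0114) without sham day 14 replicate 3. The comparison shares its sham day 14 rats with that of TBI day 1 above, so the 2 sets of values are not independent. Days since surgery, age and any difference in handling between the days cannot be told apart in this comparison.

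From day 1 to day 14 in injured rats, Cspg4 was called higher, 1 of 7 genes where 17.6% of all tested genes were, and Olig2 was called lower, 1 of 7 where 21.9% were. Olig2 went from 59.91 to 71.54 CPM in the TBI day 1 rats to 41.95 to 50.79 CPM in the TBI day 14 rats, without overlap (log2 fold change -0.50, SE 0.16, edgeR adjusted p = 0.0242). Cspg4 went from 33.73 to 50.94 CPM to 48.0 to 77.24 CPM, with overlap (0.47, SE 0.16, edgeR adjusted p = 0.0308). Gpr17 (0.72, SE 0.28, edgeR adjusted p = 0.0548), Sox10 (-0.42, SE 0.17, edgeR adjusted p = 0.0623) and Nkx2-2 (-0.53, SE 0.22, edgeR adjusted p = 0.0732) missed the threshold.

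Both calls depended on the rats and the fit. With only the groups compared in the model, the Cspg4 call was lost (0.47, edgeR adjusted p = 0.0759) and Gpr17 passed the threshold (0.71, edgeR adjusted p = 0.0425). The Cspg4 call was also lost without TBI day 14 replicate 4 (0.30, edgeR adjusted p = 0.128) and without TBI day 1 replicate 2 or 4 (edgeR adjusted p of 0.0942 and 0.0759). The Olig2 call was lost without TBI day 14 replicate 1, 2 or 3 (edgeR adjusted p of 0.0545, 0.0679 and 0.0700), without the 3 libraries with choroid plexus transcripts (-0.41, edgeR adjusted p = 0.144) and with the choroid plexus score as a covariate (-0.37, edgeR adjusted p = 0.107). Gpr17 passed the threshold without TBI day 1 replicate 1 (edgeR adjusted p = 0.0406), sham day 14 replicate 3 (0.0186), TBI day 14 replicate 2 (0.0366) or TBI day 14 replicate 3 (0.0473), and without the 3 libraries with choroid plexus transcripts its log2 fold change was 1.08 (0.0244). Sox10 passed it without TBI day 1 replicate 4 (0.0206) or TBI day 14 replicate 4 (0.0346), and Nkx2-2 without TBI day 1 replicate 1 (0.0277) or TBI day 14 replicate 4 (0.0306).

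Ordered by mean level over the 4 groups, Pdgfra ran from sham day 1 (113.2 CPM) through TBI day 1 (82.5 CPM) and sham day 14 (76.6 CPM) to TBI day 14 (66.2 CPM), with each neighbouring pair overlapping. Olig2 ran from 72.5 CPM in sham day 1 and 65.3 CPM in TBI day 1 to 46.2 CPM in TBI day 14 and 45.1 CPM in sham day 14, and only TBI day 1 and TBI day 14 were apart among neighbours. Sox10 was highest in TBI day 1 (157.3 CPM) and sham day 1 (153.8 CPM), followed by TBI day 14 (117.3 CPM), which lay below both sham day 1 rats, and sham day 14. Neighbours overlapped throughout for Cspg4, Olig1, Gpr17 and Nkx2-2. Olig1 was the flattest of the genes, with group means of 141.6 to 154.3 CPM. By their means, Pdgfra, Olig2, Sox10 and Nkx2-2 were higher in both day 1 groups than in both day 14 groups, Cspg4 and Olig1 were lower in both, and Gpr17 was highest in sham day 1 and lowest in TBI day 1.

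Ratios between genes within a rat do not depend on how the libraries are scaled, and were compared with a two-sided exact permutation test over rats. For the ratio of Gpr17 to Pdgfra at day 1, the log2 ratio of counts was -2.15 and -1.84 in the sham rats and -2.88, -2.71, -2.43 and -2.81 in the TBI rats, so that both sham rats lay above all TBI rats. The difference was -0.71 (exact permutation p = 0.0667, the smallest that 2 against 4 rats allow). At day 14 the same ratio was -2.46, -2.49, -1.82 and -2.65 in sham rats and -1.34, -1.97, -2.13 and -1.49 in TBI rats, and the sham rat of replicate 3 was within the TBI range. The difference was 0.62 in the other direction (exact permutation p = 0.0857, where 4 against 4 rats allow 0.0286).

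The log2 ratio of Cspg4 to Pdgfra differed by 0.46 at day 1 (exact permutation p = 0.0667) and by 0.42 at day 14 (exact permutation p = 0.0857), higher in TBI rats on both days. At day 1 the sham rats, at -1.60 and -1.27, lay below all 4 TBI rats, which spanned -1.13 to -0.52. The log2 ratio of Olig1 to Olig2, adjacent genes that form 1 locus in GRCr8, differed by 0.11 at day 1 (exact permutation p = 0.867) and -0.04 at day 14 (exact permutation p = 0.83). After Benjamini-Hochberg adjustment over the 6 ratio comparisons the p was 0.129 for the first 4 and 0.867 for the last 2, so none passed 0.05.

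**Figure D3:**
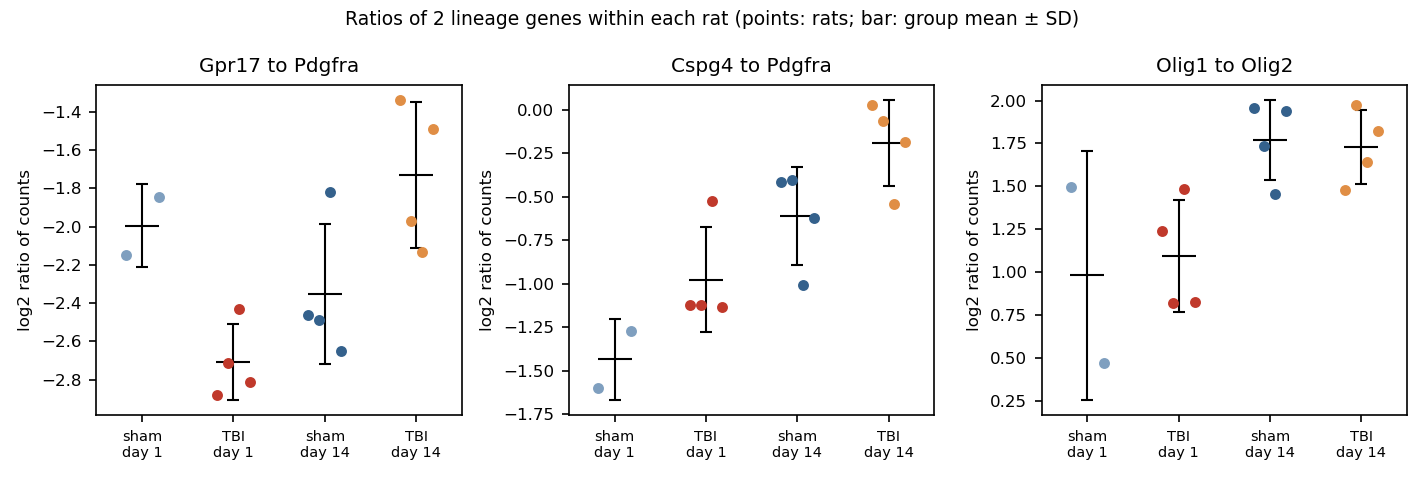
Log2 ratio of the counts of 2 lineage genes within each rat (vertical axis) in the 4 groups (horizontal axis), with 1 point per rat and bars for the group mean ± SD. The ratio of Gpr17 to Pdgfra was -2.0 on average in sham and -2.71 in TBI rats at day 1, and -2.35 in sham and -1.73 in TBI rats at day 14.

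The other genes of the lineage were grouped by stage. Among 11 further precursor genes tested, 0 were called higher and 2 lower in TBI against sham at day 1, where 11.2% of all tested genes were called higher and 7.93% lower. DESeq2 called 2 lower and limma-voom 1. Their median log2 fold change was -0.11, beside the -0.02 of all tested genes. Both were apart between the groups: Sox8, a transcription factor related to Sox10, fell from 50.32 and 47.72 CPM to 32.57, 30.76, 37.86 and 29.0 CPM (log2 fold change -0.59, SE 0.17, edgeR adjusted p = 0.0247), and Tnr, the matrix protein tenascin-R, from 83.78 and 160.0 CPM to 53.37, 78.08, 39.47 and 79.0 CPM (-0.96, SE 0.31, edgeR adjusted p = 0.0408). The count higher was 1 at an unadjusted p under 0.05 and 0 with DESeq2 and limma-voom. At day 14, 0 of the 11 were called in edgeR, DESeq2 or limma-voom, and 0 at an unadjusted p under 0.05. In edgeR 4.07% of all tested genes were called higher at day 14 and 0.365% lower. The smallest p values belonged to C1ql1 (0.28, edgeR adjusted p = 0.384) and Sox8 (0.20, edgeR adjusted p = 0.673).

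Among 9 genes of differentiating oligodendrocytes, 0 were called higher and 1 lower 1 day after injury, where 11.2% of all tested genes were called higher and 7.93% lower, with a median of -0.10. At an unadjusted p under 0.05 the edgeR count higher was 1, with DESeq2 it was 1 and with limma-voom 0. The called gene was Bmp4, a bone morphogenetic protein made by newly committed cells, at 27.05 and 19.59 CPM in sham and 13.69, 12.82, 15.22 and 10.65 CPM in TBI rats. All 4 TBI rats lay below both sham rats (log2 fold change -0.83, SE 0.19, edgeR adjusted p = 0.00708). Enpp6, a phosphodiesterase of newly formed oligodendrocytes, had 5.603 and 6.132 CPM in sham and 3.682, 1.136, 4.675 and 1.925 CPM in TBI rats, also without overlap (-1.05, SE 0.37, edgeR adjusted p = 0.0579).

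At day 14 Enpp6 lay on the other side. The sham rats had 6.029, 7.209, 6.544 and 7.184 CPM and the TBI rats 12.54, 10.78, 10.93 and 12.04 CPM. Every TBI rat was above every sham rat, yet the difference did not pass the test over all genes (log2 fold change 0.78, SE 0.30, edgeR unadjusted p = 0.0203, adjusted p = 0.227). Bmp4 was 0.42 higher by its fitted value (SE 0.16, edgeR adjusted p = 0.208) with overlap. Of the 9 genes 0 were called at day 14 in edgeR, DESeq2 or limma-voom, where edgeR called 4.07% of all tested genes higher and 0.365% lower. At an unadjusted p under 0.05, 2 of the 9 were higher and 0 lower, with a median of 0.23. The difference between the injury effects of the 2 days was called for Enpp6 (-1.82, SE 0.47, edgeR adjusted p = 0.0457) and for Bmp4 (-1.25, SE 0.25, edgeR adjusted p = 0.0122), and for 0 of the 7 lineage genes as given above.

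**Figure D4:**
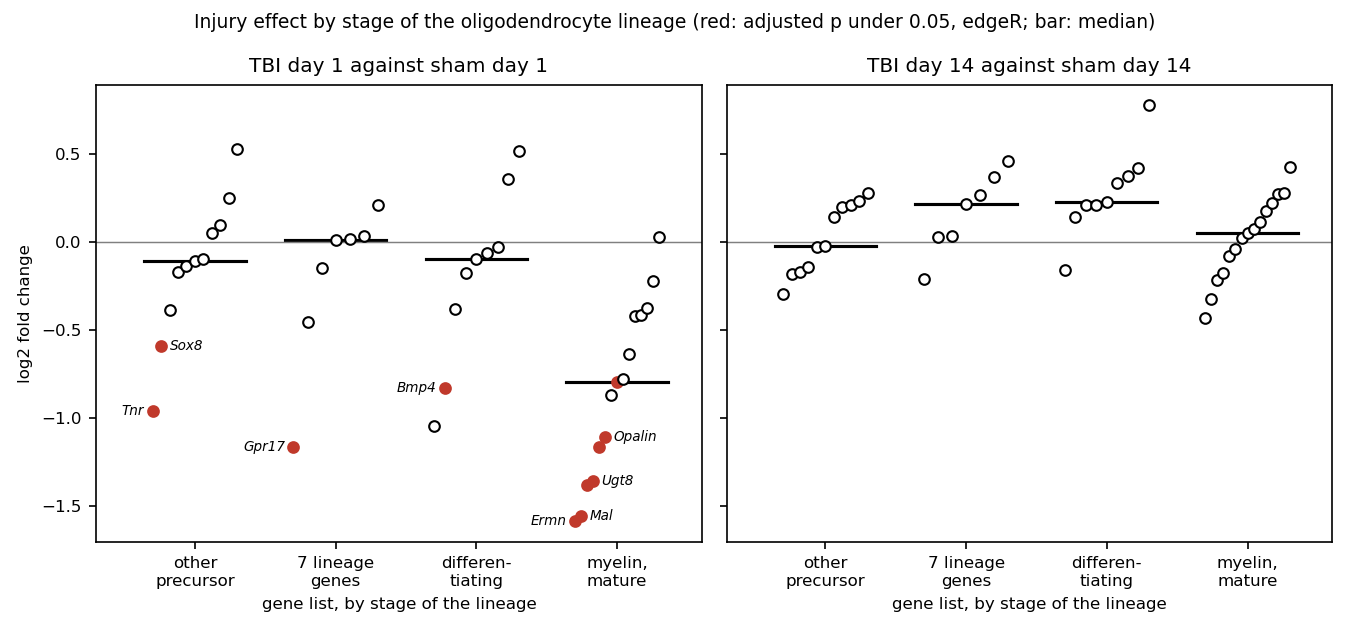
Log2 fold change of TBI against sham (vertical axis) at day 1 (left) and day 14 (right) for each tested gene of 4 lists ordered by stage (horizontal axis), with bars for the list medians and red points where the edgeR adjusted p was under 0.05, of which those described in the text carry a name. At day 1 the called genes all lie below 0, with 2 further precursor genes, 1 lineage gene, 1 differentiating gene and 7 myelin genes, and at day 14 no gene is called.

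Of 15 myelin and mature oligodendrocyte genes, 7 were called lower at day 1 and 0 higher, where 7.93% of all tested genes were called lower and 11.2% higher, and 8 did not pass the test. Their median was -0.80. The count higher was 0 at an unadjusted p under 0.05 and with DESeq2 and limma-voom, which called 9 and 8 lower. Ermn, a cytoskeletal protein of myelinating cells, had 103.0 and 152.9 CPM in sham and 58.71, 25.12, 53.4 and 33.3 CPM in TBI rats (log2 fold change -1.59, SE 0.30, edgeR adjusted p = 0.00210). Mal, a proteolipid of compact myelin, had 365.7 and 314.7 CPM in sham and 172.2, 102.3, 127.0 and 59.62 CPM in TBI rats (-1.56, SE 0.31, edgeR adjusted p = 0.00335). For both genes every TBI rat lay below both sham rats. Ugt8 (-1.36) and Opalin (-1.11) were called lower too, and Mbp, the myelin basic protein, was not (-0.42, SE 0.48, edgeR adjusted p = 0.567).

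The size of the myelin count depended on the fit and on the sham day 1 rats. With only the groups compared it was 2, where 94 of all 12720 tested genes were called lower. In the main fit 1021 of all 12875 were. The myelin count was also smaller without either sham day 1 rat and without the 3 libraries with choroid plexus transcripts. These fits keep 1 sham rat at day 1. At day 14, 0 of the 15 genes were called in edgeR, DESeq2 or limma-voom, and 0 at an unadjusted p under 0.05, with a median of 0.05. In edgeR 4.07% of all tested genes were called higher at day 14 and 0.365% lower, so few calls are expected in a list of this size. From TBI day 1 to TBI day 14, 10 of the 15 were called higher and 0 lower. The higher count was also 10 without the 3 libraries with choroid plexus transcripts. Of all tested genes, 17.6% were called higher and 21.9% lower in that comparison. The 7 lineage genes gave 1 higher and 1 lower in the same comparison.

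Ligands and the second receptor of the PDGF family were tested beside Pdgfra. Of 5 genes, 1 was called higher and 1 lower at day 1, where 11.2% of all tested genes were called higher and 7.93% lower. Pdgfc, a ligand of the Pdgfra product, had 6.735 and 2.858 CPM in sham and 8.869, 7.67, 9.305 and 11.77 CPM in TBI rats, all above both sham rats (log2 fold change 0.98, SE 0.31, edgeR adjusted p = 0.0407). Pdgfd, a ligand of the other receptor, was low throughout and was called lower (-1.21, SE 0.37, edgeR adjusted p = 0.0337), and DESeq2 called 1 of the 5 lower and limma-voom 0. Pdgfa, the main mitogen of precursors, was not called at day 1 (-0.24, SE 0.15, edgeR adjusted p = 0.280). At day 14, 0 of the 5 were called in edgeR, DESeq2 or limma-voom, where edgeR called 4.07% of all tested genes higher and 0.365% lower. At an unadjusted p under 0.05, 1 of the 5 was higher and 0 lower. Pdgfc was 0.75 higher by its fitted value with the groups apart (SE 0.26, edgeR adjusted p = 0.153).

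Of 14 regulators of precursor differentiation, 1 was called higher and 3 lower at day 1, where 11.2% of all tested genes were called higher and 7.93% lower. The gene called higher was Notch1, the receptor of a pathway that holds precursors undifferentiated (log2 fold change 0.79, SE 0.20, edgeR adjusted p = 0.0135). Those called lower were Lingo1, an inhibitor of myelination (-0.95, SE 0.22, edgeR adjusted p = 0.00705), Axin2, a target and inhibitor of Wnt signalling (-0.47, edgeR adjusted p = 0.0408), and Ptch1, the hedgehog receptor (-0.43, edgeR adjusted p = 0.0457). The cells in which these transcripts changed were not identified in the bulk tissue. At day 14, 0 of the 14 were called in edgeR and limma-voom and 1 was called lower in DESeq2. In edgeR 4.07% of all tested genes were called higher at day 14 and 0.365% lower. At an unadjusted p under 0.05 the count among the 14 was 0 higher and 3 lower. Gli1, the hedgehog effector, had the smallest p (-1.73, SE 0.56, edgeR adjusted p = 0.118), followed by Hes1, a Notch target (-0.40, SE 0.15, edgeR adjusted p = 0.195).

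Several lineage genes are also transcribed in other cells, and markers of those and further cell types were tested between the same groups. Over all tested genes, 11.2% were called higher and 7.93% lower at day 1, and 4.07% higher and 0.365% lower at day 14. Pericytes carry Cspg4, and 3 of 9 pericyte markers were called higher at day 1 and 0 lower. Their summed levels were 90.82 to 185.9 CPM in sham and 199.2 to 241.5 CPM in TBI rats. Within these sums, Anpep alone had 10.34 and 4.841 CPM in the sham rats and 41.18, 81.86, 92.36 and 75.55 CPM in the TBI rats. With Anpep taken out, the sums of the sham and TBI rats overlap. Of the 9 fitted values 7 were above 0, and Rgs5 (-0.48) and Vtn (-0.46) were lower without being called. Fibroblasts of the vessels and meninges carry Pdgfra, and 0 of 8 fibroblast markers were called at day 1 or day 14, with summed levels of 81.46 to 1043 CPM in sham and 117.8 to 438.3 CPM in TBI rats at day 1. The 1043 CPM belong to sham day 1 replicate 1, a library with choroid plexus transcripts, and 856.9 CPM of them are Igf2, which was also high in TBI day 14 replicate 3 (752.3 CPM), another such library. Of 11 choroid plexus markers 9 were called lower and 0 higher at day 1, and 1 higher and 0 lower at day 14, and the libraries with high levels are the 3 named above. With DESeq2 the counts were 9 lower at day 1 and 8 higher at day 14, and with limma-voom 0 and 0. Of 9 neuron markers 4 were called lower and 0 higher at day 1, with 7 lower in DESeq2 and 3 in limma-voom. Of 9 astrocyte markers 2 were called higher and 1 lower at day 1, and Gfap was 3.10 higher on the log2 scale (SE 0.32, edgeR adjusted p = 2.02e-05). Among microglia and macrophage markers, 4 of 10 were called higher and 2 lower at day 1, and 9 higher and 0 lower at day 14. Pericyte and neuron markers gave 0 calls at day 14, and astrocyte markers gave 1 higher and 0 lower. Every count of 0 for these cell types was also 0 with DESeq2 and limma-voom, and at an unadjusted p under 0.05 in edgeR it was 0 too, except for 1 fibroblast marker lower at day 1, 1 higher at day 14 and 2 astrocyte markers lower at day 14. The fibroblast marker Col1a2 and the choroid plexus marker Otx2 were at or near 0 counts in every library and were not tested. The part of these cells in the levels of the lineage genes was not tested.

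Precursors are among the cells known to divide after brain injury. Of the cell division genes, 9 of 10 were called higher at day 1 and 0 lower. Of all tested genes, 11.2% were called higher and 7.93% lower. The summed levels of the cell division genes were 56.43 to 58.08 CPM in sham and 109.7 to 275.5 CPM in TBI rats. DESeq2 called 9 higher and limma-voom 6. Which cells divided was not measured. At day 14, 0 of the 10 were called in edgeR, DESeq2 or limma-voom. In edgeR 4.07% of all tested genes were called higher at that day and 0.365% lower. At an unadjusted p under 0.05 in edgeR, 2 of the 10 were higher and 0 lower. The 4 TBI day 1 rats were all above the sham day 1 rats in this sum. Between the same rats Gpr17 was lower without overlap, and every other lineage gene overlapped. Whether precursors were among the dividing cells was not tested.

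The lineage genes did not rise and fall as 1 set across the 14 rats. Pearson's r of log2 CPM was highest for Sox10 with Olig2 (0.74), Sox10 with Nkx2-2 (0.71) and Cspg4 with Olig1 (0.71), and lowest for Cspg4 with Olig2 (-0.52). After the group means were removed, the highest values were those of Sox10 with Olig1 (0.79), Cspg4 with Olig1 (0.77), Pdgfra with Gpr17 (0.69) and Cspg4 with Sox10 (0.68), and Sox10 with Olig2 had 0.35. These points share their libraries and therefore depth and tissue make-up, and r is given as a description over 14 rats. The genes whose pattern was most like each member, by the same r over 14 rats, were Pax6 for Nkx2-2 (0.97), Atp1b2 for Sox10 (0.93), Arrdc3 for Olig2 (0.92), Kank1 for Cspg4 (0.91), Kcnj10 for Pdgfra (0.90), Mfap3l for Gpr17 (0.90) and Jam3 for Olig1 (0.87). The second for Cspg4 was Snx33 (0.91), which is its next coding gene in GRCr8.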

How the data were processed

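RNA-seq counts of 14 rat hippocampus samples were used as deposited. Per the labels and the study's methods, the authors sequenced stranded mRNA libraries, aligned the reads to rn5 with STAR 2.4.2a and counted them per gene with featureCounts 1.5.0. The strand setting and the treatment of reads in overlapping genes are not given in the sources used here. The counts carry no normalization, and no columns of other series were present (0). H3K4me3 peak lists were not used here, because they name no genes and no rn5 annotation was given.

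Samples were grouped by their labels (sham and TBI, days 1 and 14). The model was edgeR's quasi-likelihood fit (version 4.0.16, R 4.3.3) after filterByExpr and TMM scaling, with a mean for each group across the 14 samples and two-sided p adjusted by the Benjamini-Hochberg method over 12875 genes and a threshold of 0.05. SE is the log2 fold change divided by the root of the F statistic. CPM use the TMM factors, and correlations were taken on log2 CPM (prior count 2). Ratios used a pseudocount of 0.5 and an exact permutation test. Alternatives were limma-voom (limma 3.58.1), DESeq2 1.42.0, median-of-ratios factors, only the groups compared, no filter, a minimum of 10 counts in each sample, the replicate block, all 6 sham samples as baseline, a choroid plexus score as a covariate, an adjusted p under 0.01, a pseudocount of 2, each sample left out, and, added after seeing the data, leaving out the 3 libraries with choroid plexus transcripts. The scripts were tested on simulated data.

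The members and gene lists were chosen with earlier results of these data known. The plan was to name, beside the 7 members, the called genes of each list and the genes most correlated with each member. It set at most the 4 of lowest p per comparison, or the 2 of lowest p where none was called. The plan was not followed in full: many cell type and cell division markers, and the myelin genes at day 14, are given as counts only. Rgs5 and Vtn at day 1 were named outside the plan. Mbp, Pdgfa, Enpp6 at day 1, Lims2, Snx33 as a neighbour, Snap25 and Slc17a7 were named after their values were seen. Promoters came from the RefSeq table of GRCr8, and no coordinates were converted between builds. Gene lists hold 3 genes (Lhfpl3, Zfp488 and Sox9) that are not analysed here. Each sample is 1 rat, so p-values measure the spread between rats. Figures were drawn with matplotlib 3.10.9.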

Additional observations from a re-analysis of the deposited data

Results flagged for a closer look

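Gpr17 gave both of the results in which 1 rat of a group of 4 stood farther from the others than Dixon's 95% critical value allows. In TBI day 1, replicate 1 had 15.04 CPM while the other 3 had 11.2 to 11.78 CPM (gap over range 0.83 on the log2 scale). In sham day 14, replicate 3 had 26.4 CPM while the other 3 had 11.84 to 12.79 CPM (gap over range 0.903 on the log2 scale). Both were the highest rat of their group. Across the 7 genes and the 3 groups of 4, 21 such groups were tested and 2 passed, where chance gives about 1 in 20. Without sham day 14 replicate 3 the difference between the day 1 and day 14 effects on Gpr17 was -1.91 (edgeR adjusted p = 0.0117), against -1.54 with it (edgeR adjusted p = 0.0645).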

How the results depend on the processing

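Calls of lineage genes in TBI against sham at day 14 (0) and in TBI day 1 against sham day 14 (3 higher) were within 1.5 times under every alternative run. So were the 0 lineage genes lower in TBI day 1 against sham day 14, the 0 lower between the sham groups and the 0 with a higher effect at day 1. The 10 myelin genes higher from TBI day 1 to TBI day 14 stayed within the same limit. Each of the other counts moved under at least 1 alternative, and the cause was not tested. With all 6 sham samples as the baseline, 1 lineage gene was higher and 0 lower at day 1, and the fitted values were -0.17 for Cspg4, -0.05 for Olig1 and 0.27 for Olig2 at day 1 and -0.23 for Olig2 at day 14. At an adjusted p under 0.01 (a stricter threshold on the same fit) the lineage counts that were above 0 elsewhere were 0 for day 1, for sham day 1 against sham day 14 and for TBI day 14 against TBI day 1 in each direction, and 2 myelin genes were lower at day 1. With only the groups compared, 2 myelin genes were lower at day 1, where 94 of all 12720 tested genes were. In the same setting 1 lineage gene was higher between the sham groups, where 1387 of all 12338 tested genes were. Leaving out the 3 libraries with choroid plexus transcripts keeps 1 sham rat at day 1. The lineage and myelin counts lower at day 1 were then smaller, as was the lineage count higher between the sham groups. From TBI day 1 to TBI day 14 the lineage count was then larger for genes called higher and smaller for genes called lower. With DESeq2, 2 were higher from TBI day 1 to TBI day 14 and 1 had a lower effect at day 1 than at day 14. With the choroid plexus score as a covariate, 0 were lower from TBI day 1 to TBI day 14, and Cspg4 was -0.03 and Sox10 -0.05 at day 1 and Olig1 -0.03 at day 14. With limma-voom Olig1 was -0.01 at day 1.

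The labels do not say whether replicate numbers pair the rats. Over 18 same-numbered pairs, r of the deviations from the group means ran from -0.348 to 0.243 (median 0.034), and 5 were over 0.1. Over 54 other-numbered pairs it ran from -0.43 to 0.348 (median -0.033), and 17 were over 0.1. The deviations of the 2 sham day 1 rats mirror each other, so these values cannot settle whether rats were paired. With the replicate block Cspg4 was -0.01, Sox10 -0.05 and Olig1 -0.07 at day 1, Nkx2-2 passed the threshold between the sham groups (0.89, edgeR adjusted p = 0.0476), and it changed no other call of a lineage gene given above.

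Leaving out 1 rat at a time gave 0 to 1 lineage genes and 2 to 9 myelin genes lower at day 1, and 0 to 1 lineage genes with a lower effect at day 1 than at day 14. It gave 0 to 3 lineage genes higher between the sham groups, and 0 to 2 higher and 0 to 3 lower from TBI day 1 to TBI day 14. Fitted values at day 1 ran from -0.14 to 0.19 for Cspg4, -0.09 to 0.15 for Sox10, -0.19 to 0.23 for Olig1, -0.42 to 0.18 for Olig2 and -0.04 to 0.50 for Nkx2-2. At day 14 they ran from -0.06 to 0.11 for Olig1 and -0.07 to 0.21 for Olig2, and against sham day 14 Gpr17 in TBI day 1 ran from -0.46 to 0.02. The log2 ratio of Cspg4 to Pdgfra at day 14 ran from 0.29 to 0.54. Its exact permutation p was under 0.05 without TBI day 14 replicate 3, before any adjustment over the ratio comparisons. The log2 ratio of Olig1 to Olig2 ran from -0.40 to 0.62 at day 1 and -0.15 to 0.04 at day 14. Where 1 sham day 1 rat was left out, the other was assumed to vary like the other groups. Sham day 1 held 2 rats, which limits the precision of comparisons with it.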
